A study of Rattus norvegicus with 12 samples.

Results

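Ahr, the aryl hydrocarbon receptor, and the cytochrome P450 genes Cyp1a1, Cyp1a2 and Cyp1b1 were followed after thermal injury in the rat. The 4 genes were measured by 5 probe sets, which are all those that the platform annotation assigns to exactly 1 of them, out of 15866 probe sets other than controls and 10411 genes with a probe set of their own. Ahr had 2 probe sets, 1369146_a_at and 1369147_at. Cyp1a1 was measured by 1370269_at, Cyp1a2 by 1387243_at and Cyp1b1 by 1368990_at. The samples were total RNA of thermally injured rats taken 2, 4 and 7 days after the injury, each set against total RNA of a sham-treated rat sample, with 3 samples a day and 9 in all. The labels name neither the strain, the sex, the age nor the tissue, do not give the extent of the burn, and leave unsaid if samples of 1 day are different animals. The p-values measure only the spread between these samples, which may be technical.

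The receptor sits in the cytoplasm with heat shock protein 90 and its co-chaperones until a ligand such as a dioxin, a polycyclic hydrocarbon or a tryptophan metabolite binds it. It then enters the nucleus, pairs with Arnt and binds short response elements near its target genes. Cyp1a1 is the classical target, very low in liver until a ligand is present. Cyp1a2 is made constitutively by hepatocytes and metabolises caffeine and aromatic amines. Cyp1b1 is made mostly outside the liver parenchyma and acts on oestrogens and polycyclic hydrocarbons. In cultured hepatocytes and in animals, inflammation is known to lower many P450 messages.

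Each value is the log2 ratio of an injured to a sham sample for 1 probe set, centred on the median of its array. Which group is the numerator is nowhere given, so the direction is only likely. It is taken as injury over sham, channel 2 (labelled injury) over channel 1 (labelled sham). With that direction, the acute-phase gene Orm1 had a mean ratio of 1.00 ± 0.20 at day 2, 0.39 ± 0.06 at day 4 and 0.95 ± 0.12 at day 7 (SD, n = 3), above 0 in 9 of 9 samples. A2m, another acute-phase gene of the rat, was also above 0 in 9 of 9 samples and Lcn2 in 7 of 9. These are the 3 largest of the acute-phase list, which was not uniform. Of its 19 probe sets for 14 genes, 17 had a mean above 0 at day 2 (median 0.32), 10 at day 4 (0.0018) and 13 at day 7 (0.16). Over the 3 days 15 were above 0 and 4 below, the lowest being Cp 1368419_at at -0.30, while C3 and Crp were within 0.01 of 0. Day 1 was left out because its identifiers did not follow those of the other days. Signals recovered from the ratios had rank correlations over probe sets between 0.491 and 0.567 among the 9 arrays used, and between -0.0161 and 0.0173 between a day 1 array and one of them.

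The array signals behind a ratio could be recovered where the ratio was the quotient of 2 whole numbers of at most 3000. These numbers are in lowest terms, so both signals of a sample may be larger by a common factor that differs between samples, and their unit is not given. They give the proportion within a sample and a lower bound on its signals, and are not compared between samples. Which of the 2 is larger follows from the sign of the deposited ratio, so the numbers are not a second measurement. Brightness, taken from the same numbers over the 9 samples, has the same limit. The 9 probe sets of the 7 hepatocyte markers measured, among them Alb, Apoa1, Ttr and Cps1, were all too bright for most of their signals to be recovered, at the top of the brightness scale. The 10 probe sets of exocrine pancreas genes lay between the 7.97th and 78.7th percentile of brightness. At day 4 their median ratios were 0.03, 3.10 and 1.78 in samples 1 to 3, against -0.36 to -0.01 at day 2 and -0.33 to 0.47 at day 7. In bulk RNA, fewer cells of a type and less message per cell cannot be told apart.

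The control probe sets for the 5′ and 3′ ends of actin and GAPDH, which report how far the RNA and its labelling reached, differed between days. The actin 5′ ratio minus the 3′ ratio was 0.79, 0.31 and 0.06 in samples 1 to 3 of day 2. It was 0.35, -0.38 and -0.23 at day 4, and 0.88, 0.44 and 0.88 at day 7. The same difference for GAPDH was 0.42, 0.19 and -0.11 at day 2, -0.14, -0.31 and 0.08 at day 4, and 0.39, 0.21 and 0.80 at day 7. Injured samples thus had relatively more 5′ signal than their shams at day 7 for both messages, and the lowest day means of this difference were at day 4.

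In none of the 4 genes did a mean ratio on any day, the mean over the 3 days or a difference between days pass the limma test across all probe sets at an adjusted p of 0.05. Few other probe sets did. The share that passed was 0% at day 2, 0% at day 4, 0.00630% at day 7 (the 1 probe set of Lig4) and 0.0126% over the 3 days (1 probe set each of Orm1 and Zfp37). It was 0% for day 4 minus day 2, 0% for day 7 minus day 2, 0.00630% for day 7 minus day 4 (Lig4 again) and 0% for any difference among days. Lig4, a DNA ligase, and Zfp37, a zinc finger gene, are named here because they were called. Before adjustment, 3 of 20 means of the 5 probe sets had a limma p under 0.05, those of Ahr 1369146_a_at at day 2 and of Cyp1a1 at day 7 and over the 3 days. So did 3 of 15 differences between days, namely Ahr 1369146_a_at for day 4 minus day 2 and for day 7 minus day 4, and Cyp1a1 for day 7 minus day 4. The F test among days was under it for 1 of 5, Ahr 1369146_a_at. The share of all probe sets under this level was 7.98% at day 2, 8.17% at day 4, 11.3% at day 7 and 9.26% over the 3 days. It was 7.45% for day 4 minus day 2, 7.45% for day 7 minus day 2, 11.1% for day 7 minus day 4 and 9.75% for the F test.

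**Figure D1:**
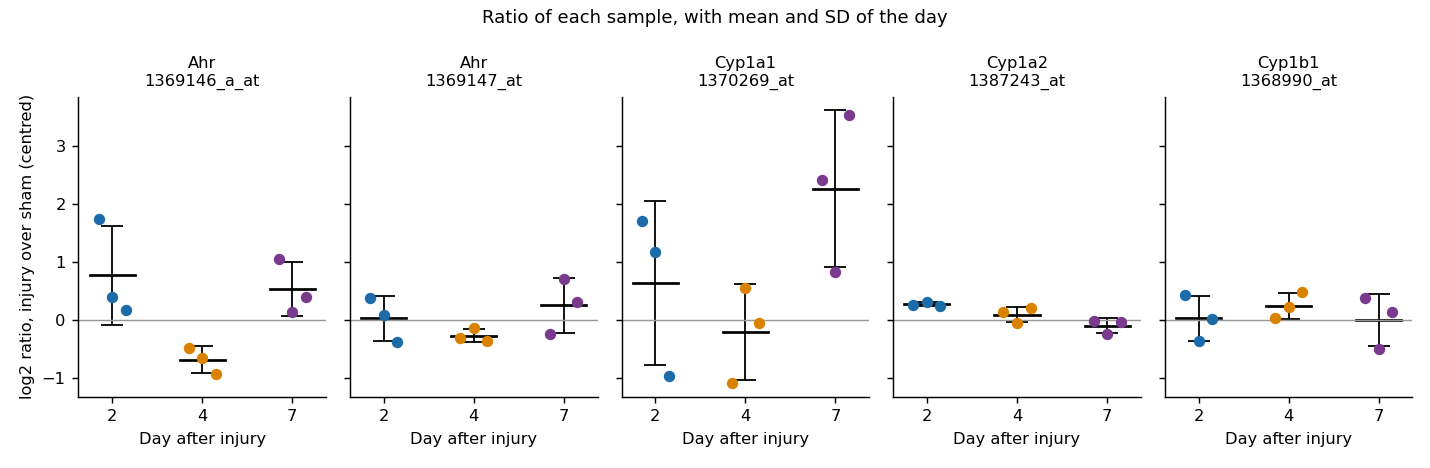
Log2 ratio of injury over sham, centred on the array median, for each of the 9 samples by day, with 1 panel per probe set. Points are samples, the black line is the mean of the day and the bars are its SD over 3 samples. Cyp1a1 spans -1.08 to 3.53 while Cyp1a2 stays between -0.24 and 0.32.

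Of the receptor's probe sets, 1369146_a_at gave ratios on opposite sides of 0 on different days. At day 2 they were 1.74, 0.40 and 0.18 in samples 1 to 3, all above 0, as in 13.5% of all probe sets. At day 4 they were -0.47, -0.64 and -0.93, all below 0 as in 16.6% of probe sets, and at day 7 they were 1.06, 0.15 and 0.41, again all above 0. The day 4 samples therefore lay below every sample of days 2 and 7, a pattern found in 2.96% of all probe sets. Days 4 and 2 lay wholly on opposite sides of 0 in 4.53% of probe sets, and days 7 and 4 in 7.25%.

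The means were 0.77 ± 0.84 at day 2, -0.68 ± 0.24 at day 4 and 0.54 ± 0.47 at day 7 (SD, n = 3), which correspond to 1.71-fold, 0.624-fold and 1.45-fold of sham. None passed in limma (adjusted p = 0.599, 0.628 and 0.552). Day 4 minus day 2 was -1.46 (SE 0.43, adjusted p = 0.565) and day 7 minus day 4 was 1.22 (SE 0.43, adjusted p = 0.361). Days 2 and 7, neighbours in the order of the means, differed by -0.23 (95% interval -1.23 to 0.76). The F test among the 3 days gave an adjusted p of 0.457. Without sample 1 of day 2, the highest of the 9, the day 2 mean was 0.29, day 4 minus day 2 was -0.97 and the 3-day mean was 0.05, against 0.21 with it. Without sample 1 of day 7 the day 7 mean was 0.28.

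Numbers in lowest terms were recovered for 8 of the 9 ratios. In sample 1 of day 2 they were 1128 after injury, against 331 in its sham. In the 3 samples of day 4 they were 1693, 1620 and 997 after injury, against 2389, 2561 and 1988 in shams. The injury value was the lower one in each, as the ratios below 0 require. At day 7 they were 2363, 1959 and 622 after injury, against 1116, 1685 and 419 in shams.

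The other Ahr probe set, 1369147_at, gave smaller ratios. They were 0.38, 0.10 and -0.38 at day 2, -0.31, -0.13 and -0.35 at day 4, and -0.24, 0.71 and 0.31 at day 7. The day 4 samples were again all below 0, but they overlapped those of the other days. Its means were 0.03 ± 0.39, -0.26 ± 0.12 and 0.26 ± 0.47 (SD, n = 3), with adjusted p = 0.985, 0.805 and 0.687. Over the 9 samples its mean was 0.01 (95% interval -0.27 to 0.29), against 0.21 (-0.20 to 0.62) for 1369146_a_at.

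The recovered numbers of 1369147_at, in lowest terms, were 2497, 279 and 2279 after injury at day 2, against 1878, 284 and 2997 in shams. In 2 of the day 4 samples they were 164 and 1004 after injury, against 207 and 1113 in shams. The injury value was the lower one in each, again as the ratios require. At day 7 they were 1226, 334 and 1306 after injury, against 1423, 195 and 943 in shams.

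The probe sets of Ahr thus disagreed in size. The ratio of 1369146_a_at minus that of 1369147_at lay between -0.59 and 1.36 in single samples and was largest in sample 1 of day 2. They had the same sign in 7 of 9 samples and a Pearson r of 0.44 over the 9 samples. The annotation gives both to the same transcript record, and the position of each in the transcript was not looked up here.

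The actin end difference went with the ratios of 1369146_a_at, and its part in them was not tested beyond the values that follow. Its Pearson r with 1369146_a_at over the 9 samples was 0.81, higher than that of 98.5% of all probe sets, against 0.47 for 1369147_at. With the GAPDH end difference the r was 0.63 for 1369146_a_at and 0.54 for 1369147_at. In a fit with the actin difference as a covariate, added after the data were seen, the day 7 mean of 1369146_a_at changed sign to -0.39 (adjusted p = 0.979), the day 2 mean was 0.28 and the day 4 mean -0.57. Day 4 minus day 2 was then -0.85 and day 7 minus day 4 was 0.18. With the GAPDH difference as a covariate, also added after the data were seen, the means were 0.63 at day 2, -0.57 at day 4 and 0.12 at day 7 (adjusted p = 0.994), day 4 minus day 2 was -1.20 and day 7 minus day 4 was 0.70.

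Pancreas markers were high in the day 4 samples to different degrees. All 3 samples were at 2.23 or above for Cpa1 and at 2.12 or above for Pnliprp1. For Cpb1, Pnlip, Cel, Clps and Prss1 the lowest day 4 ratio was below 0. The median ratios of the pancreas markers, 0.03, 3.10 and 1.78 in samples 1 to 3, stood beside -0.47, -0.64 and -0.93 for 1369146_a_at. The part of these markers in the Ahr ratios was not tested.

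**Figure D2:**
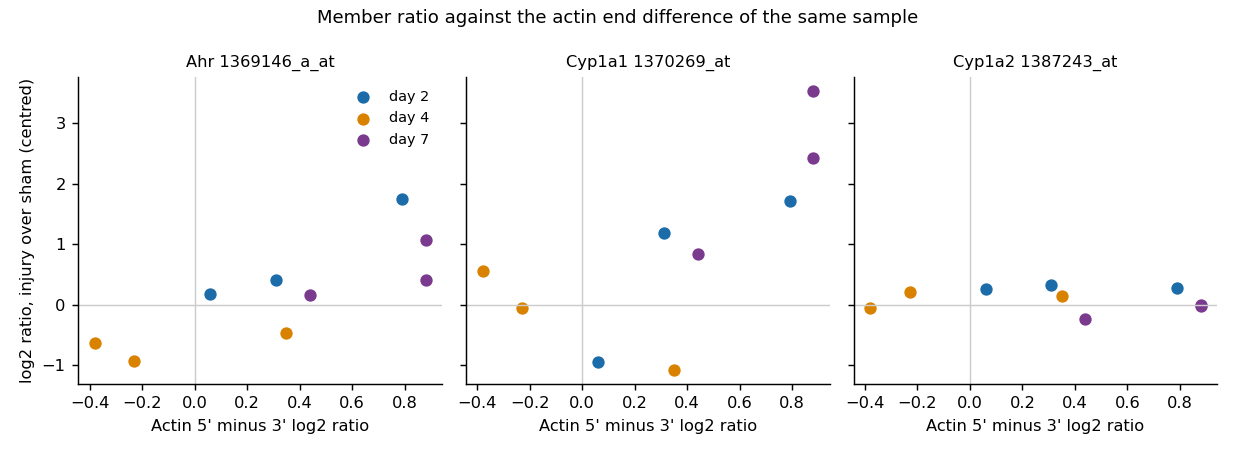
Log2 ratio of Ahr 1369146_a_at, Cyp1a1 and Cyp1a2 in each sample against the difference between the actin 5′ and 3′ control ratios of the same sample, coloured by day. The 3 day 4 samples of Ahr lie below 0 and the 2 highest ratios of Cyp1a1 (2.42 and 3.53) are at a difference of 0.88, while Cyp1a2 stays near 0 over the whole range.

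Cyp1a1, the most inducible target, had the largest mean ratio of the 4 genes, at day 7. Its ratios at day 2 were 1.71, 1.18 and -0.95 in samples 1 to 3, and at day 4 they were -1.08, 0.55 and -0.05. At day 7 they were 2.42, 0.84 and 3.53, all above 0 as in 16.6% of all probe sets. All 3 day 7 samples lay above all 3 day 4 samples, as did those of 9.15% of probe sets, but sample 2 of day 7 lay below 2 of the day 2 samples. Among the ratios of its own array, that of Cyp1a1 stood at the 98.8th, 91.7th and 99.5th percentile in samples 1 to 3 of day 7.

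As fold of sham, the samples were at 3.28, 2.26 and 0.518 at day 2, at 0.473, 1.46 and 0.969 at day 4, and at 5.35, 1.8 and 11.6 at day 7. The percentile within the array was 97.5, 95.4 and 4.68 at day 2 and 5.22, 86 and 45.4 at day 4, so the samples of these days disagreed on whether Cyp1a1 was high or low.

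The day 7 mean was 2.27 ± 1.35 (SD, n = 3; 4.81-fold, 95% interval of the log2 mean 0.84 to 3.69). It did not pass (adjusted limma p of 0.287). A larger mean in absolute size that day was found in 0.328% of all probe sets, and in 1.21% of those below the lower quartile of brightness. The means of the other days were 0.65 ± 1.41 at day 2 and -0.19 ± 0.82 at day 4, with adjusted p = 0.848 and 0.965. The day 2 mean was 0.11 without its sample 1 and 1.45 without its sample 3. In the order of the means, day 7 minus day 2 was 1.62 (95% interval -0.40 to 3.64, adjusted p = 0.712) and day 4 minus day 2 was -0.84 (-2.86 to 1.18), so neighbours did not differ beyond their spread. Day 7 minus day 4 was 2.46 (0.44 to 4.48, adjusted p = 0.363). Over the 3 days the mean was 0.91 (SE 0.36, adjusted p = 0.497), above 0 in 6 of 9 samples. Without sample 3 of day 7 the day 7 mean was 1.63, and without sample 2 it was 2.98. Of the 9 arrays, that of sample 3 of day 7 had the lowest limma array weight (0.77) and the highest array median (0.1607). It also had the largest GAPDH end difference (0.80), and the part of these in its ratio was not tested. Day 7 minus day 2 was 0.82 without sample 3 of day 2 and 0.99 without sample 3 of day 7, and reached 2.33 when sample 2 of day 7 was left out.

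All 9 pairs of numbers behind the Cyp1a1 ratios were recovered. Brightness was lower in only 5.58% of probe sets, and it depends on the probes as well as on the message. In lowest terms, the Cyp1a1 signals at day 2 were 47, 292 and 55 after injury, against 14, 141 and 107 in shams. At day 4 they were 45, 114 and 131 after injury, against 97, 79 and 141 in shams. At day 7 they were 647, 145 and 647 after injury, against 119, 77 and 50 in shams. The true signals may be multiples of these. The pairs restate the deposited ratios, in which injury was the higher in 3 of 3 samples at day 7.

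**Figure D3:**
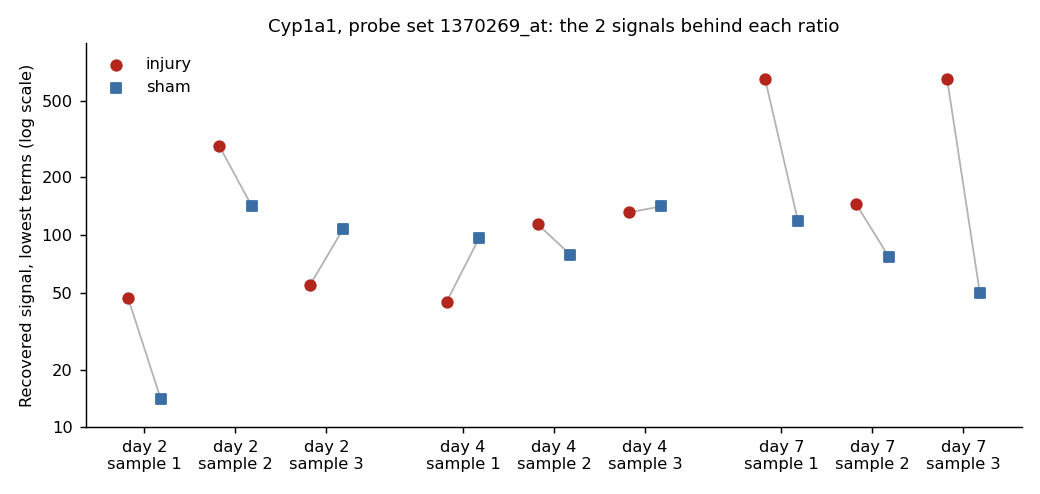
Signals recovered for Cyp1a1 in each of the 9 samples, in lowest terms on a log scale, with injury as a red circle and its sham as a blue square joined by a line. The injury point lies above its sham in 6 of 9 samples, all 3 of day 7 among them, which follows from the sign of the deposited ratio. Heights are not comparable between samples because the common factor is unknown.

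The within-day SD of Cyp1a1, pooled over the 3 days, was 1.22, larger than that of 89.2% of probe sets. Its ratios also went with the end differences, with a Pearson r over the 9 samples of 0.69 with that of actin and 0.87 with that of GAPDH. These were higher than those of 95.4% and 99.4% of all probe sets. With the actin difference as a covariate the day 7 mean was 1.32 (adjusted p = 0.978), and with the GAPDH difference it was 0.62 (adjusted p = 0.987). Day 7 minus day 4 was 1.40 with actin and 0.38 with GAPDH, and the day 2 mean was 0.14 and 0.06. Both fits were added after the data were seen and leave 5 residual degrees of freedom.

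Cyp1a2, the neighbour of Cyp1a1 on chromosome 8 with 0 annotated genes between them, showed the smallest spread of the 4 genes. Its ratios were 0.27, 0.32 and 0.25 at day 2, 0.14, -0.05 and 0.21 at day 4, and -0.01, -0.24 and -0.03 at day 7. The day 2 samples were all above 0 and the day 7 samples all below it, without overlap. All 3 day 7 samples were below 0 in 17.2% of probe sets and below all of day 2 in 6.49%, and days 7 and 2 lay wholly on opposite sides of 0 in 3.74%. In the ratios as deposited, samples 1 and 3 of day 7 were above 0, at 0.01 and 0.13. Of the 9 hepatocyte marker probe sets, 9 had means above 0 at day 2 (median 0.13) and 8 below 0 at day 7 (-0.13). Alb 1367555_at, Apoc3, Cps1 1384334_at and Tat also had days 7 and 2 wholly on opposite sides of 0. At day 4 the means of all 9 were below 0 (median -0.17), unlike that of Cyp1a2. The part of hepatocyte messages as a whole in the Cyp1a2 ratios was not tested.

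Its means were 0.28 ± 0.03 at day 2, 0.10 ± 0.14 at day 4 and -0.09 ± 0.13 at day 7 (SD, n = 3), or 1.21-fold, 1.07-fold and 0.938-fold of sham. None passed in limma (adjusted p = 0.628, 0.883 and 0.815). Day 7 minus day 2 was -0.37 (95% interval -0.77 to 0.02, adjusted p = 0.685). The 95% limma intervals of neighbouring days included 0. Day 4 minus day 2 was -0.18 (-0.57 to 0.22) and day 7 minus day 4 was -0.20 (-0.59 to 0.20). The day 4 samples still lay all below those of day 2, with a highest ratio of 0.21 against a lowest of 0.25. The share of all probe sets with such a gap is not given here. Day means in this order, day 2 highest and day 7 lowest, were found in 15.1% of probe sets.

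Over the 9 samples the mean ratio of Cyp1a2 was 0.10 with a 95% interval of -0.06 to 0.26. A 3-day mean below -0.06 or above 0.26 was therefore outside this interval, which does not bound a change on a single day. The within-day SD of Cyp1a2 was 0.11, and 0.945% of probe sets varied less. Its signals were too bright to be recovered with numbers up to 3000 in any of the 9 samples. Its Pearson r with the actin end difference was -0.13 and with that of GAPDH -0.14.

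Cyp1b1, the member of the family made mostly outside hepatocytes, gave ratios near 0. Its ratios were 0.43, -0.35 and 0.03 at day 2, 0.04, 0.23 and 0.48 at day 4, and 0.38, -0.49 and 0.14 at day 7. The 3 days overlapped, and only the day 4 samples were all above 0, as in 17.1% of probe sets. Its means were 0.04 ± 0.39, 0.25 ± 0.22 and 0.01 ± 0.45 (SD, n = 3), with adjusted p = 0.981, 0.82 and 0.988, and the 3-day mean was 0.10 (95% interval -0.18 to 0.38). Day 4 minus day 2 was 0.21 (-0.48 to 0.90) and day 7 minus day 4 was -0.24 (-0.93 to 0.45). Numbers in lowest terms were recovered in 7 samples. At day 7 they were 1919, 691 and 1570 after injury, against 1453, 923 and 1273 in shams, so sample 2 was the 1 with less signal after injury. Its Pearson r over the 9 samples was -0.01 with the actin end difference and 0.09 with that of GAPDH.

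Collagen genes and other stellate, fibroblast and smooth muscle markers, cells that can make Cyp1b1, had a median of 0.10 at day 2, -0.07 at day 4 and -0.34 at day 7 over 10 probe sets, of which 7, 3 and 3 were above 0. None passed, and their part in the Cyp1b1 values was not tested.

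**Figure D4:**
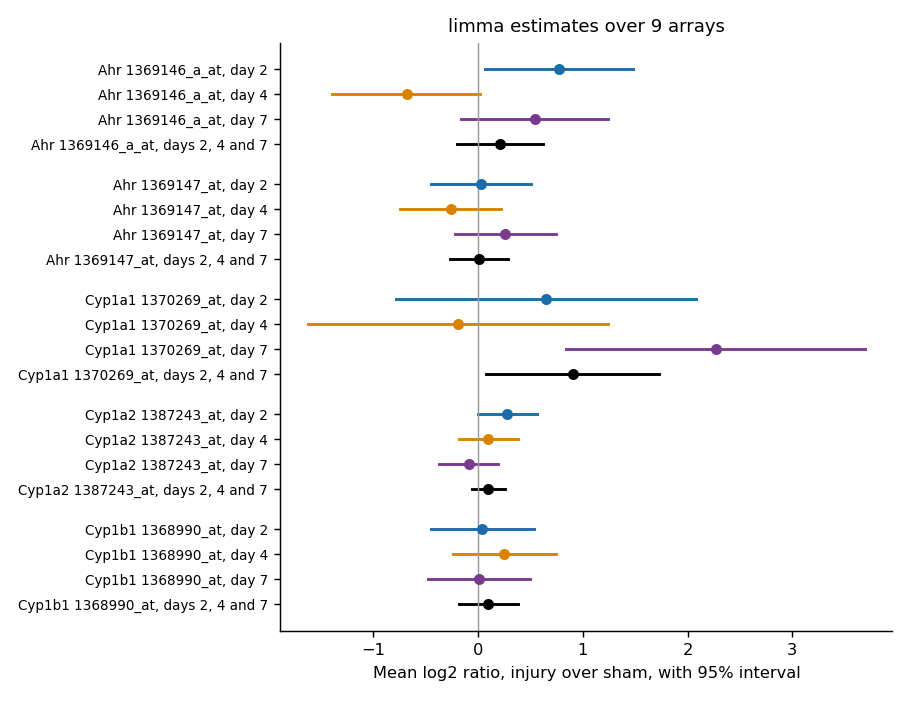
Mean log2 ratio of injury over sham for each probe set at days 2, 4 and 7 and over the 3 days, with the 95% interval of the limma fit over 9 arrays. Only the intervals of Ahr 1369146_a_at at day 2 and of Cyp1a1 at day 7 and over the 3 days exclude 0 before adjustment, and no adjusted p is below 0.287.

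The signs of the P450 genes often differed within a sample. Cyp1a1 and Cyp1a2 had the same sign in 2 of 9 samples (Pearson r of -0.32), Cyp1a1 and Cyp1b1 in 4 of 9 (0.14), and Cyp1a2 and Cyp1b1 in 5 of 9 (0.27). The first count rests in part on centring. In samples 1 and 3 of day 7 Cyp1a2 was -0.01 and -0.03, but 0.01 and 0.13 as deposited, the sign of Cyp1a1. Of the probe sets with 1 symbol, 25.5% had a lower r with Cyp1a1 than Cyp1a2 did. Cyp1a1 had the sign of Ahr 1369146_a_at in 7 of 9 samples (0.58) and that of Ahr 1369147_at also in 7 of 9 (0.52). These correlations describe 9 ratios that share arrays and RNA samples, and no test was made of them. For Cyp1a1 and Ahr 1369146_a_at, 92% of the probe sets with 1 symbol had a lower r with the receptor probe set than Cyp1a1 did.

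The receptor and Arnt bind the letters GCGTG, the core of the xenobiotic response element. The 300-base promoter windows (250 bases before and 50 after the gene start) in the RefSeq table of build GRCr8 cover 3 of the 4 genes. Cyp1a1 has none there. Of the 3, 2 are printed because they differ in this core. That of Cyp1b1 is chr6:21094315-21094614 on the plus strand and that of Cyp1a2 is chr8:66978100-66978399 on the minus strand. Capitals mark GCGTG or, on the other strand, CACGC.
Cyp1b1: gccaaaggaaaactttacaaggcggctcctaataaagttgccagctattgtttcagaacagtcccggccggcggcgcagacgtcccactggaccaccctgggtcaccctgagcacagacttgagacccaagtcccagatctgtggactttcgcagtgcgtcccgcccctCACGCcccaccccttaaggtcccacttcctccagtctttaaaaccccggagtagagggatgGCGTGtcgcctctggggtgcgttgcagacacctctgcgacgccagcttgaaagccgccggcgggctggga
Cyp1a2: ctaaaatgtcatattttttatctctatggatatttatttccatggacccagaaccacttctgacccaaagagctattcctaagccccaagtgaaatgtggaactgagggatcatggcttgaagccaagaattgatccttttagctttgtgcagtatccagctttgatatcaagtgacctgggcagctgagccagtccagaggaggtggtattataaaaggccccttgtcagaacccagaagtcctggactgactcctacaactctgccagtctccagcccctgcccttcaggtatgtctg

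The Cyp1b1 window held the core at 2 places, starting 81 bases before the gene start on the opposite strand and 20 bases before it on the gene's own strand. The copy nearer the start also matched the longer form TNGCGTG. The Cyp1a2 window and that of Ahr, not printed, held 0. The core contains the letters CG, and the Cyp1a2 window has 0 CG pairs, so it could not hold the core. The Cyp1b1 window has 19, that of Ahr 37, and the median over all windows is 7. Bases further from the gene start were not searched. Of 33469 windows of this length, 29.7% held the core on either strand and 4.89% the longer form. These matches describe letters in the windows and not binding. The 2 genes whose windows are shown both had 3-day means of 0.10.

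The wider receptor pathway gave no called probe set on any day. Among its partners, 4 of 6 genes were measured by 6 probe sets, whose median was 0.22 at day 2 (6 above 0), -0.21 at day 4 (2 above 0) and 0.36 at day 7 (4 above 0). The medians of all probe sets on these days were -0.00049, -0.01 and -0.00078.

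Arnt, the nuclear partner, had 0.32 ± 0.22 at day 2, -1.33 ± 1.26 at day 4 and 0.37 ± 0.15 at day 7 (SD, n = 3), with its day 4 samples between -2.79 and -0.57. Its lowest day mean was at day 4, as for Ahr 1369146_a_at. Hsp90ab1, a form of heat shock protein 90, had 0.52 ± 0.09, -0.39 ± 0.03 and 0.35 ± 0.24 by probe set 1375335_at but 0.22, -0.03 and -0.17 by 1375336_at. Its probe sets differed in sign at day 7. Arnt2, a relative of Arnt best known from brain, had 3-day means of 0.32 and 0.77 by its probe sets (adjusted p = 0.732 and 0.497). Adjusted p for the 3-day mean was 0.796 for Arnt, 0.562 for Hsp90ab1 1375335_at and 0.989 for 1375336_at.

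Tiparp, a target that dampens the receptor, was the 1 measured gene of the feedback list. Its means were 0.06 ± 0.33 at day 2, -0.48 ± 0.39 at day 4 and -0.13 ± 0.23 at day 7 (SD, n = 3; adjusted p = 0.96, 0.594 and 0.846).

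Other genes that the receptor can induce mostly had means below 0. Of 6 probe sets for 6 of 10 listed genes, 5 were below 0 on each of the 3 days, with medians of -0.16, -0.16 and -0.38. Aldh3a1, an aldehyde dehydrogenase and classical target, had means of -0.95 ± 0.92, -0.72 ± 0.25 and -0.43 ± 0.26 and a 3-day mean of -0.70 (adjusted p = 0.339). It was below 0 in 9 of 9 samples, but the highest at day 2 was only -0.01. The share of all probe sets below 0 in 9 of 9 was not counted. Its brightness was at the 27.3rd percentile. Nfe2l2, the regulator of oxidative stress genes, was above 0 in 1 of 9 samples and had a 3-day mean of -0.32 (adjusted p = 0.419), reaching -0.53 ± 0.29 at day 7. Gsta1, a glutathione transferase, had -0.20 over the 3 days (adjusted p = 0.539). Nqo1, a quinone reductase named here after its values were seen, was the 1 with a positive 3-day mean, at 0.58 ± 0.15, -0.40 ± 1.35 and 0.74 ± 0.36 by day, with 8 of 9 samples above 0 (adjusted p = 0.727 over the 3 days).

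**Figure D5:**
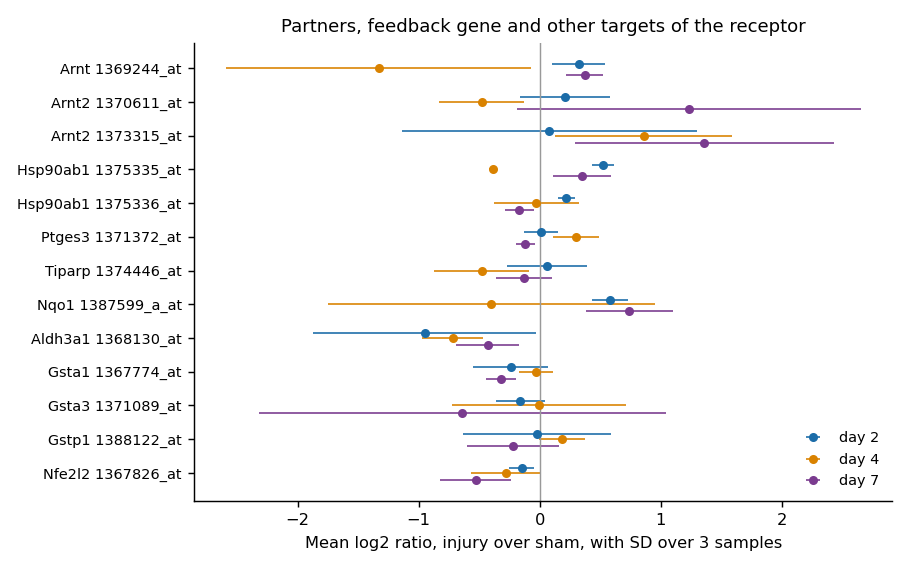
Mean log2 ratio of injury over sham at days 2, 4 and 7, with the SD over 3 samples, for the measured partners, feedback gene and other targets of the receptor. Arnt and Hsp90ab1 1375335_at are lowest at day 4, and all 3 means of Aldh3a1 and Nfe2l2 are below 0.

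Genes of electron transfer to P450 enzymes and of haem synthesis and breakdown had list medians between -0.23 and 0.20 by day. Single probe sets ranged wider, as Por 1368213_at did from -0.60 to 1.55 at day 2. The electron donors, 4 genes with 6 probe sets, had medians of 0.18, 0.13 and -0.17 by day. Cyb5b had a 3-day mean of 0.34 by 1370005_at and -0.04 by 1371795_at, Por, the P450 reductase, 0.21 and 0.10, and Cyb5a -0.06. Haem genes, 8 of 12 measured, had medians of 0.02, 0.20 and -0.23. Among them Alas1, the first enzyme of haem synthesis in liver, had -0.44 ± 0.07 at day 7 (adjusted p over the 3 days 0.644), Hmox2 0.23 over the 3 days (0.443), and Hmox1, the inducible haem oxygenase, 0.94 ± 1.09 at day 7 with samples from -0.32 to 1.67 (0.592 over the 3 days).

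Enzymes on the way from tryptophan to kynurenine, a source of receptor ligands, were measured for 6 of 8 genes. Their medians were -0.01, -0.01 and -0.13, and 0 passed on any day. Aadat had a 3-day mean of -0.13, Kynu -0.12 and Ido1 0.25. A further list held other xenobiotic receptors and liver-enriched genes, with Cebpa and again Nfe2l2, which are transcription factors and not receptors. Of its probe sets, 9 of 9 were below 0 at day 4 (median -0.32), and 6 of 9 were above 0 at day 2 (0.27) and at day 7 (0.34). Hnf4a, a hepatocyte nuclear receptor, had 0.63 ± 0.04, -0.23 ± 0.25 and 1.14 ± 0.47 by 1369289_at, with a 3-day mean of 0.51 (adjusted p = 0.237), against 0.29 by 1382496_at (adjusted p = 0.558). Nr1i3, the constitutive androstane receptor, was above 0 in 1 of 9 samples, with -0.69 ± 0.19 at day 7 and -0.47 over the 3 days (adjusted p = 0.284).

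The probe sets whose ratios over the 9 samples were most like those of a member were found among 12778 others with 1 gene symbol. For Ahr 1369146_a_at they were those of Ttc4 (Pearson r of 0.968), Kdm5a (0.966) and Sdc3 (0.951), each with its lowest day mean at day 4. For Ahr 1369147_at they were Palm3 (0.942), Rnaseh1 (0.93) and Hipk3 (0.919). For Cyp1a1 they were Mbtps1 (0.945), Lrrc51 (0.942) and Sar1a (0.933), with day 7 means of 0.20, 0.99 and 0.48, against 2.27 for Cyp1a1. For Cyp1a2 they were Pptc7 (0.965), Pdha1 (0.939) and Cyp3a18 (0.921), a P450 of another family, with day 7 means of -0.63, -0.37 and -0.44. For Cyp1b1 they were Paqr6 (0.913), H4cl1 (0.91) and Acot1 (0.898). Likeness over 9 ratios is a description, since the closest of so many probe sets will be close.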

How the data were processed

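The authors deposited 1 log2 ratio of array signals for each probe set and sample, on Affymetrix RAE230A arrays per the labels. No source used here names their software, scaling or build, or says which group is the numerator. For arrays, their number limits the precision. Of 15923 probe sets, 57 controls were left out. The platform annotation gave 1 symbol to 12783, several to 312 and none to 2771.

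Ratios of the 9 arrays of days 2, 4 and 7 were centred on each array's median, which lay between -0.1274 and 0.1607. A mean per day was fitted across all 15866 probe sets with limma 3.58.1 (R 4.3.3; lmFit and eBayes, 6 residual degrees of freedom), and p-values were adjusted by Benjamini-Hochberg over all of them, with a threshold of 0.05. Ratios were turned back into 2 whole numbers of at most 3000 by continued fractions (tolerance 1e-09). Between 66.36% and 69.41% of the ratios of the 9 arrays were recovered, against at most 0.4208% of shifted values. Brightness is the median log2 of the smaller signal, with numbers up to 20000 and larger ones set to 20000. The fit was tested on simulated data with the spread of the real probe sets and a change placed on every day. Of log2 changes of 0.5, 2%, 0% and 2% were called at days 2, 4 and 7, and 26% over the 3 days. Of changes of 1 it was 38%, 40% and 36%, and 76% over the 3 days. An uncalled probe set can thus hold a change of this size.

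The members and gene lists were chosen with earlier results of these data known. Named genes are the members, the 3 probe sets most like each by Pearson r, and in each list those called or the 3 with the smallest p over the 3 days. Same-numbered samples of different days had correlations of deviations between -0.0309 and 0.0546, 0 of 9 over 0.1, so they were not treated as pairs.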

Additional observations from a re-analysis of the deposited data

Results flagged for a closer look

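Ahr 1369146_a_at lay wholly below 0 at day 4 and wholly above 0 at days 2 and 7. Day 4 minus day 2 was -1.46 (adjusted p = 0.565) and day 7 minus day 4 was 1.22 (adjusted p = 0.361), so the limma tests of the differences did not pass. Of all probe sets, 4.53% had days 4 and 2 on opposite sides of 0 in every sample and 7.25% had days 7 and 4. Cyp1a2 lay wholly below 0 at day 7 and wholly above 0 at day 2, with a difference of -0.37 (adjusted p = 0.685). Days 7 and 2 lay wholly on opposite sides of 0 in 3.74% of probe sets. Among these were probe sets of the hepatocyte markers Alb, Apoc3, Cps1 and Tat. Before centring, 2 of the 3 day 7 ratios of Cyp1a2 were above 0 (0.01 and 0.13), and its day 7 mean was -0.01.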

How the results depend on the processing

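None of the 402 member values under other settings, nor of the 360 that left out 1 array, was called, and the lowest adjusted limma p was 0.213 and 0.222. Signs changed in 20 and 14 of them, and the cause was not tested. Values with an end difference as a covariate, other than differences between days, are those fitted at an end difference of 0. That point lies below every day 7 sample in both differences. With the actin end difference as a covariate, Ahr 1369146_a_at was -0.39 at day 7 and -0.23 over the 3 days, Ahr 1369147_at -0.0014 over the 3 days, and Cyp1b1 -0.12 at day 2, -0.29 at day 7 and -0.04 over the 3 days. With that of GAPDH, Cyp1a1 was 0.25 at day 4 and 0.18 for day 4 minus day 2, Ahr 1369147_at -0.01 at day 2 and -0.03 over the 3 days, and Cyp1b1 -0.09 at day 2, -0.33 at day 7 and -0.03 over the 3 days. Without centring, Ahr 1369147_at was -0.0032 at day 2 and Cyp1b1 0.09 for day 7 minus day 2. With quantile normalization, Ahr 1369147_at was -0.0013 at day 2 and -0.01 over the 3 days, and Cyp1b1 -0.02 at day 7. Array weights gave Cyp1b1 -0.01 at day 7, and averaging probe sets gave Ahr -0.0031 for day 7 minus day 2. With 1 array left out, Ahr 1369146_a_at day 7 minus day 2 ran from -0.53 to 0.25, Ahr 1369147_at from -0.14 to 0.24 at day 2 and from -0.06 to 0.09 over the 3 days, and Cyp1a1 at day 4 from -0.56 to 0.25. Cyp1b1 ran from -0.16 to 0.23 at day 2, from -0.17 to 0.26 at day 7, from -0.22 to 0.22 for day 7 minus day 2 and from -0.42 to 0.01 for day 7 minus day 4.

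The counts of called probe sets, 0 at day 2, 0 at day 4, 1 at day 7, 2 over the 3 days, 1 for day 7 minus day 4 and 0 otherwise, were 17, 1, 9, 49 and 3 with a variance prior following brightness. The robust prior gave 0 over the 3 days. Without centring, with the replicate block and with either end difference as a covariate the counts at day 7, over the 3 days and for day 7 minus day 4 were all 0. Quantile normalization gave 0 over the 3 days and 2 for day 7 minus day 4. Averaging the probe sets of a gene (counts are then of genes), or leaving out probe sets below the lower quartile of brightness, Cyp1a1 among them, gave 0 at day 7, 4 over the 3 days and 0 for day 7 minus day 4. Day 7 fitted alone gave 0. Leaving out 1 array gave 0 to 12 at day 7, 0 to 6 for day 7 minus day 4, 0 to 2 among days, and 0 to 1 at day 2, over the 3 days, for day 4 minus day 2 and for day 7 minus day 2. The 12 at day 7 came without sample 2 of day 7.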
